A study of Oryzias latipes with 6 samples.

Results

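The transcription factors and cofactors that switch on cilium genes were described in medaka, a small fish kept in the laboratory, in testes of wild-type animals and of nphp4 mutants. 10 names were searched: foxj1, rfx1, rfx2, rfx3, rfx4, rfx7, mcidas, gmnc, ccno and e2f5. A row counted when its deposited gene name was one of these, with a final a or b allowed, or, for rows named by an identifier alone, when the gene name of their best Swiss-Prot match was. 12 of the 24365 genes in the table were found this way under 9 of the names, among them both copies of foxj1, rfx1 and rfx7. mcidas had no such row and is not analysed here. In the RefSeq annotation of the assembly ASM223467v1 it lies between ccno and cdc20b.

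The testis RNA came from 3 wild-type libraries and 3 libraries of nphp4-/- fish, each a biological replicate made from the testes of 2 fish. The series calls the mutant a knockout; the labels give neither the lesion nor the age or strain of the fish. The protein made from nphp4, nephrocystin-4, sits in the transition zone where the cilium leaves the cell. The comparison addresses how the testis transcriptome differs when this gene is mutated. Levels are FPKM, fragments divided by gene length and by a total for each library. Levels of different genes in a library can thus be set side by side, as far as the annotated gene lengths hold. The totals in the deposited values are not the plain library sizes: in wild type 3 the total was 13693794, below the 15516979 reads on its genes, while in the other 5 libraries it was above the reads on genes.

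Regulators of more than one kind are known to act upstream of cilium genes. FOXJ1, a forkhead factor, drives the genes of motile cilia, and the RFX family binds the X-box in promoters of genes for cilium assembly and transport, in cells with motile as well as non-motile cilia. In cells that grow many cilia, the geminin relatives GMNC and MCIDAS bind E2F4 or E2F5 and switch on centriole amplification, for which the cyclin CCNO is needed. In the testis the sperm flagellum is itself a motile cilium, and in mouse RFX2 is required for spermatids to form it.

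The 6 libraries held 13438879 to 16054354 reads on genes. Wild type 3 stood apart: its log2(FPKM + 1) values had a median correlation of 0.938 with those of other libraries, where the rest had 0.974 to 0.983. 5 pancreatic enzyme genes summed to 16125 FPKM in it and to 249 to 2320 FPKM in the other 5 libraries, and 8 intestinal genes to 400 FPKM against 4.14 to 39.5 FPKM. Markers of the testis were present in every library. The spermatogonial list held nanos2, gfra1, zbtb16, dazl, piwil1 and ddx4. It is not confined to spermatogonia, since dazl, piwil1 and ddx4 are germ cell genes in general. Its 8 rows summed to 1044 to 1475 FPKM in wild type and 1178 to 1358 FPKM in the mutant. The sum of 4 spermatocyte rows was 1024 to 1335 and 1225 to 1391 FPKM, and that of 3 spermatid rows 77.4 to 102 and 90.3 to 121 FPKM. That of 7 Sertoli rows was 1072 to 1205 and 941 to 1281 FPKM. 2 Leydig rows summed to 31.9 to 52.8 FPKM in wild type and 41.4 to 78.3 FPKM in the mutant, 3 macrophage rows to 96.8 to 364 and 97.4 to 191 FPKM, and the 1 blood row held 5.66 to 7.56 and 4.08 to 9.09 FPKM. No row of these lists was at 0 in all libraries. All lists but the spermatogonial one lacked some of the genes searched. Rows were found for 3 of 6 spermatid, 2 of 5 Leydig and 1 of 4 blood genes.

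nphp4 itself (ENSORLG00000023493) was at 17.1, 23.5 and 12.2 FPKM in wild type 1, 2 and 3 and at 6.84, 7.00 and 10.9 FPKM in mutant 1, 2 and 3. All mutant values were below all wild-type values, and the transcript was not absent from the mutant. Its log2 difference, mutant minus wild type on the log2(FPKM + 1) scale, was -0.99 (95% interval -1.63 to -0.35), with an adjusted p of 0.436 in limma over all tested genes. The exact permutation test gave p = 0.1, 2-sided, which is the smallest value that 3 against 3 libraries allow.

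The regulators covered a wide range of levels in the testis. e2f5 was by far the most abundant of them, with a mean of 227 FPKM over the 6 libraries, higher than 98.5% of all genes in the table. rfx2 (mean 21.1 FPKM), rfx1a (15.9 FPKM), rfx1b (11.7 FPKM) and foxj1 (7.34 FPKM) followed, and then rfx3 (5.05 FPKM), rfx7b (2.62 FPKM) and rfx4 (1.43 FPKM). The second copy of rfx7 (0.346 FPKM), gmnc (0.338 FPKM), ccno (0.109 FPKM) and foxj1b (0.00882 FPKM) were below 1 FPKM. From e2f5 down to rfx7 each gene was above the next in 6 of 6 libraries. The gene lengths are the same for all libraries, so this agreement does not test them. rfx1a, at a length of 6137 bases against 2450 for rfx2, held more reads than rfx2. It had 4335 against 2369 reads in wild type and 4542 against 2353 in mutants. Only e2f5 from rfx2, rfx3 from rfx7b and rfx4 from rfx7 had ranges over the libraries that did not overlap. rfx7 and gmnc could not be put in order, since their means differed 1.02-fold and rfx7 was higher in 5 of 6 libraries.

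**Figure D1:**
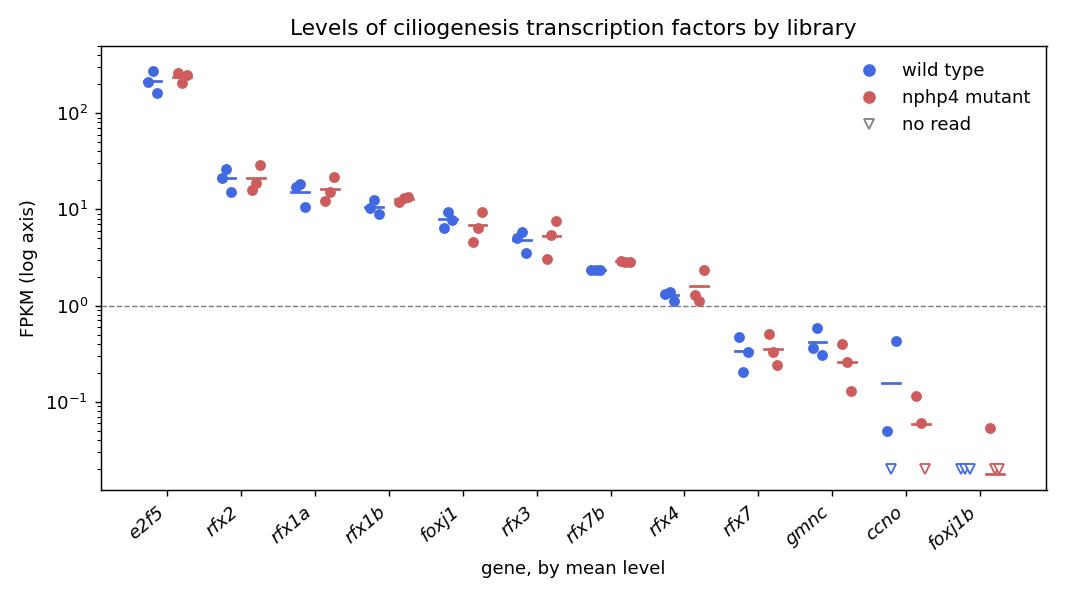
FPKM of the 12 genes in each library on a log axis, wild type in blue and nphp4 mutant in red; bars are group means, open triangles mark libraries with no read (placed at the foot of the axis), and the dashed line marks the minimum of 1 FPKM for testing. e2f5 lies at 163 to 274 FPKM in all 6 libraries, while ccno and foxj1b have libraries with no read.

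8 of the 12 genes reached a mean of 1 FPKM in wild type or mutant and entered the test. None of the 8 passed the test for a difference between the genotypes: 0 passed an adjusted p of 0.05 in limma, where 0.0592% of the 15203 tested genes did, and 0 had an unadjusted p below 0.05, where 7.13% did. limma-voom on the recovered reads called 0 of the 8, but also 0 of all tested genes, so this count adds nothing. At an unadjusted p below 0.05 it had 0 of the 8 and 1050 of the 15203 tested genes. The 8 log2 differences ran from -0.21 (foxj1) to 0.26 (rfx1b), with a median of 0.13 against 0.01 over all tested genes. 7 of the 8 were positive (87.5%, against 51.3% of all tested genes). Without wild type 3, 3 of the 8 were positive with a median of -0.05, and without mutant 3 also 3, with a median of -0.09. In whole testis, fewer cells of a type and less RNA per cell cannot be told apart.

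**Figure D2:**
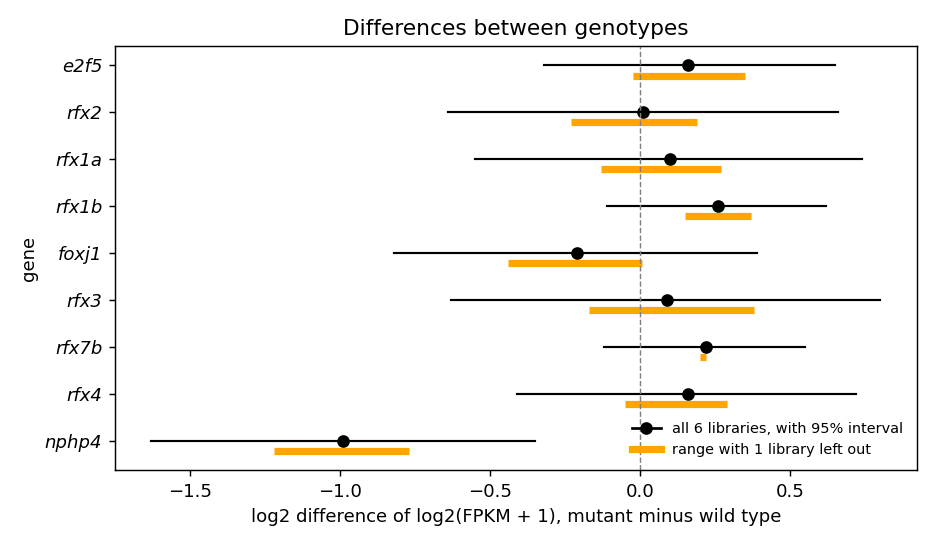
Log2 difference between genotypes for the 8 tested regulators and nphp4, on the log2(FPKM + 1) scale; points are the estimates from all 6 libraries, black lines their 95% intervals in limma, and orange bars the range when 1 library is left out. The interval of nphp4, from -1.63 to -0.35, is the only one that lies wholly to one side of 0.

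foxj1 (ENSORLG00000001276, chromosome 8, 2713289 to 2718630, plus strand) is the medaka gene whose best match is zebrafish foxj1a, a regulator that zebrafish needs for its motile cilia. It was at 6.40, 9.43 and 7.75 FPKM in wild type 1, 2 and 3, and at 4.56, 6.48 and 9.40 FPKM in mutant 1, 2 and 3. The lowest value was in mutant 1 and the highest in wild type 2, with mutant 3 almost level with it, so the groups overlapped. The means were 7.86 ± 1.52 and 6.81 ± 2.43 FPKM (SD, n = 3 each). The log2 difference was -0.21 (SE 0.25, 95% interval -0.82 to 0.39, adjusted p = 0.883 in limma). The interval spans ratios of 0.568 to 1.31 in FPKM + 1, and a change within it was not detectable at this spread between libraries. Without mutant 1 the log2 difference was 0.0071.

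foxj1b (ENSORLG00000025879, chromosome 19, 2887862 to 2892359, plus strand) was all but silent. Its 3 reads were all in mutant 1, at 0.0529 FPKM, and the other 5 libraries held none. With no read, a level of up to 3 reads, or 0.0455 to 0.0554 FPKM depending on the library, is still allowed; this and the intervals on reads below cover counting error only. The copies of foxj1 were thus unequal in testis RNA, with foxj1 above foxj1b in 6 of 6 libraries. The deposited table gives both the forkhead family, though it lists the forkhead domain for foxj1b and no domain for foxj1.

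The RFX genes were next. 6 of the 8 rows that the table assigns to this family were among the genes found, and the other 2 were rfx5 and rfx6. The table lists the RFX DNA-binding domain for rfx1a, rfx1b, rfx2, rfx3, rfx4 and rfx7b. It adds the RFX1 activation region for rfx1a, rfx1b, rfx2 and rfx3, and an RFX5-type N-terminal domain for rfx7b. The row of rfx7 has neither the family nor a domain there. The sum over all 7 RFX rows searched, rfx7 among them, was 41.9 to 67.0 FPKM in wild type and 47.8 to 77.5 FPKM in the mutant. rfx2 made up 33.2% to 39.5% of it, rfx1a 25.2% to 29.3%, rfx1b 17.4% to 24.7% and rfx3 6.32% to 9.81%. The 4 genes with the activation region thus accounted for most of this sum in every library. Like the levels, these shares rest on the annotated gene lengths. The sum leaves out rfx5, at a mean of 5.48 FPKM over the libraries, and rfx6.

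**Figure D3:**
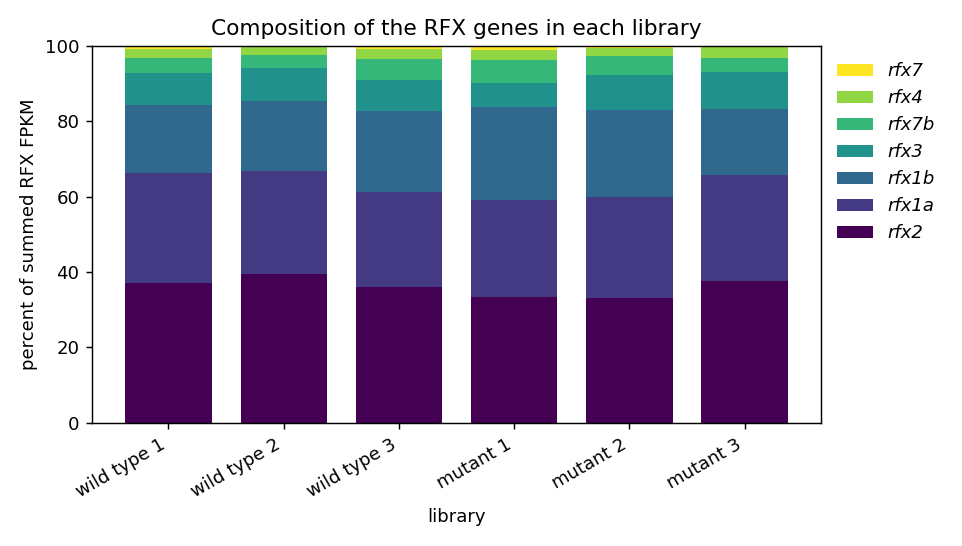
Share of each RFX gene searched in their summed FPKM (percent) in each of the 6 libraries, as stacked bars, with rfx5 and rfx6 not included. rfx2, at the foot of each bar, takes between 33.2% and 39.5% in all libraries.

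rfx2 (ENSORLG00000009257, chromosome 4, 14943596 to 14971252, plus strand) is the family member that mouse spermatids depend on. It was at 21.4, 26.5 and 15.1 FPKM in wild type 1, 2 and 3, and at 16.0, 18.8 and 29.0 FPKM in mutant 1, 2 and 3. The libraries of the groups lay across each other, with wild type 3 lowest and mutant 3 highest. The means were 21.0 ± 5.73 and 21.3 ± 6.88 FPKM (SD, n = 3 each), and the log2 difference was 0.01 (SE 0.28, 95% interval -0.64 to 0.66, adjusted p = 0.996 in limma). That interval corresponds to ratios of 0.640 to 1.58 in FPKM + 1. Without wild type 3 the log2 difference was -0.20 and without mutant 3 it was -0.23. Its span shares 128 bases with acsbg2 on the opposite strand, and counting by strand is not stated.

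rfx1a and rfx1b are the copies of RFX1, a broadly expressed member of the family. rfx1a (ENSORLG00000010273, chromosome 8, 13229228 to 13241738, minus strand) was at 17.0, 18.3 and 10.6 FPKM in wild type 1, 2 and 3 and at 12.3, 15.1 and 21.9 FPKM in mutant 1, 2 and 3. As for rfx2, wild type 3 was lowest and mutant 3 highest. Its log2 difference was 0.10 (SE 0.27, 95% interval -0.55 to 0.74, adjusted p = 0.950 in limma), -0.13 without wild type 3 and -0.12 without mutant 3. Within a library, rfx1a stood at 0.692 to 0.805 of the level of rfx2. This ratio varied 1.16-fold over the 6 libraries while the levels of rfx1a and rfx2 varied 2.07-fold and 1.93-fold.

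rfx1b (ENSORLG00000011800, chromosome 1, 28662815 to 28673880, plus strand) lies on the sex chromosome of medaka. It was at 10.3, 12.5 and 8.98 FPKM in wild type 1, 2 and 3 and at 11.8, 13.0 and 13.5 FPKM in mutant 1, 2 and 3. Mutant 1 was below wild type 2, and the other mutant libraries were above all of wild type. The means were 10.6 ± 1.77 and 12.7 ± 0.863 FPKM (SD, n = 3 each), a log2 difference of 0.26 (SE 0.16, 95% interval -0.11 to 0.62, adjusted p = 0.810 in limma). It was positive in all 14 alternatives, from 0.15 to 0.37, with both ends of this range at 1 library left out. The alternatives of filter, moderation and replicate term cannot change it. The rfx1b level was 0.471 to 0.597 of that of rfx2 in wild type and 0.464 to 0.738 in the mutant, and this ratio was highest in mutant 1 and lowest in mutant 3.

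rfx3 (ENSORLG00000007747, chromosome 12, 13037673 to 13049778, minus strand) is needed for nodal cilia in mouse. It was at 4.99, 5.79 and 3.51 FPKM in wild type 1, 2 and 3 and at 3.02, 5.36 and 7.61 FPKM in mutant 1, 2 and 3. Both extremes were mutant libraries, mutant 1 and mutant 3. The log2 difference was 0.09 (SE 0.30, 95% interval -0.63 to 0.80, adjusted p = 0.960 in limma), -0.079 without wild type 3 and -0.17 without mutant 3. SMAD4, at a mean of 11.1 FPKM, overlaps 2711 bases of the span of rfx3 on the opposite strand, so some reads of either could have been assigned to the other.

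rfx4 (ENSORLG00000011114, chromosome 6, 21498761 to 21515733, plus strand) encodes a factor best known from brain development that in humans also has testis transcripts. It was at 1.33, 1.39 and 1.11 FPKM in wild type 1, 2 and 3 and at 1.28, 1.11 and 2.37 FPKM in mutant 1, 2 and 3, resting on 53 to 135 reads per library. Mutant 3 stood above all the others, and the remaining 5 libraries lay close together. The log2 difference of 0.16 (SE 0.24, 95% interval -0.41 to 0.72, adjusted p = 0.906 in limma) was -0.05 without mutant 3.

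rfx7b (ENSORLG00000028723, chromosome 6, 15305478 to 15320822, plus strand) was the only one of the 8 tested genes with no overlap between the groups. Of all tested genes 14.0% had none. RFX7 is known from frog embryos as a regulator of cilia in the neural tube. rfx7b was at 2.35, 2.37 and 2.32 FPKM in wild type 1, 2 and 3 and at 2.94, 2.84 and 2.87 FPKM in mutant 1, 2 and 3. All mutant values were above all wild-type values. With reads on genes as the total of each library the wild-type values were 2.44, 2.46 and 2.05 FPKM and the mutant values 3.04, 2.89 and 2.92 FPKM, again without overlap. The means were 2.35 ± 0.0276 and 2.89 ± 0.0524 FPKM (SD, n = 3 each), 1.23-fold apart.

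For rfx7b the log2 difference was 0.22 (95% interval -0.12 to 0.55, adjusted p = 0.821 in limma), so it did not pass the threshold. The SE was 0.14 after limma had drawn it towards that of genes of like level, and 0.0131 from the 6 values alone. The exact permutation test gave p = 0.1 (2-sided), the smallest possible here. The values rested on 263 to 389 reads per library, for which counting alone gives a relative SD of 5.07% to 6.17%. The observed SD was 1.17% of the mean in wild type and 1.81% in the mutant, less than counting error, so the spread of 3 libraries is no measure of the precision of this gene. With reads on genes as the total it was 10.2% in wild type and 2.57% in the mutant. The summed reads were 887 in wild type against 1060 in mutants, and the ratio of mutant to wild type was 1.23 per total in the deposited FPKM (95% exact binomial interval 1.12 to 1.35, counting error only) and 1.27 per reads on genes (1.16 to 1.39). The log2 difference was 0.20 to 0.22 when any 1 library was left out.

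The other copy, RFX7 in the table (ENSORLG00000008583, chromosome 3, 21547542 to 21557332, plus strand; rfx7 here), was not tested because of its low level. It was at 0.473, 0.203 and 0.328 FPKM in wild type 1, 2 and 3 and at 0.501, 0.329 and 0.241 FPKM in mutant 1, 2 and 3. The summed reads were 110 and 111, a ratio of 1.04 per total in the deposited FPKM (95% exact binomial interval 0.790 to 1.36, counting error only). rfx7b, the longer and higher of the copies, was above rfx7 in 6 of 6 libraries. The deposited annotation gives the rfx7 row neither the RFX family nor a domain. Whether that row is a full gene model cannot be told from it.

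In the multiciliation branch e2f5 was abundant, while gmnc and ccno were below 1 FPKM. e2f5 (ENSORLG00000017919, chromosome 17, 30007360 to 30012320, minus strand) encodes an E2F factor that also works in the cell cycle, and zebrafish needs it for multiciliated cells and for spermatogenesis. It was at 211, 274 and 163 FPKM in wild type 1, 2 and 3 and at 259, 204 and 251 FPKM in mutant 1, 2 and 3. The mutant libraries all lay within the range of wild type. The means were 216 ± 55.7 and 238 ± 29.7 FPKM (SD, n = 3 each), and the log2 difference was 0.16 (SE 0.20, 95% interval -0.32 to 0.65, adjusted p = 0.889 in limma). Without wild type 3, its lowest library, the log2 difference was -0.024.

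gmnc (ENSORLG00000029037, chromosome 13, 628959 to 636856, minus strand) encodes the geminin relative at the head of the multiciliation programme. It held 17, 25 and 12 reads in wild type 1, 2 and 3 and 16, 10 and 6 reads in mutant 1, 2 and 3. In FPKM this was 0.309 to 0.578 in wild type and 0.129 to 0.394 in the mutant, with the groups overlapping and mutant 3 lowest. The ratio of summed reads, mutant to wild type, was 0.609 per total in the deposited FPKM (95% exact binomial interval 0.381 to 0.961) and 0.632 per reads on genes (0.395 to 0.996). These intervals cover counting error only and not the spread between libraries, and the gene was below the level set for testing.

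ccno (ENSORLG00000022642, chromosome 9, 5336857 to 5338348, plus strand) encodes cyclin O. It held 11 reads in all: 1, 0 and 7 in wild type 1, 2 and 3, and 2, 1 and 0 in mutant 1, 2 and 3. 7 of them came from wild type 3, the library with the high pancreatic and intestinal sums; whether those tissues had a part in it was not tested. A library without a read allows up to 3 reads, which is 0.150 to 0.182 FPKM over the totals of all 6 libraries. At this depth no difference between the groups was detectable.

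For 7 of the 8 tested regulators the groups overlapped, and the same libraries tended to lie at the ends. Among the 8 tested genes, wild type 3 was the lowest library for 6 and below the gene's mean for 7, and mutant 3 was the highest library for 5 and above the mean for all 8. The median deviation from the mean over libraries, on the log2(FPKM + 1) scale, was -0.35 in wild type 3, -0.19 in mutant 1, -0.08 in mutant 2, -0.06 in wild type 1, 0.22 in wild type 2 and 0.42 in mutant 3. foxj1 departed from this in wild type 3, where it was above its mean, so that its ratio to rfx2 was 0.515 there against 0.286 to 0.356 elsewhere. Of the 4 genes of smallest p in each related list below, wild type 3 was also lowest in all but rfxap, ropn1l, dync2li1, crem and tbpl1. Those genes were picked by their difference between the genotypes, which was positive for all but crem. That choice favours a wild-type library as the lowest. They therefore cannot show whether the low place of wild type 3 was particular to the regulators. How often each library was lowest or highest over all tested genes was not counted. The summed spermatid markers were lowest in wild type 3 (77.4 FPKM) and highest in mutant 3 (121 FPKM). ropn1l and TEKT1, which are part of this sum, are also in the motile cilium list below. The other germ cell sums were lowest in wild type 3 too, but not highest in mutant 3. The sum of the spermatogonial list was 1178 FPKM in mutant 3 and highest in wild type 1 (1475 FPKM). The spermatocyte sum was 1225 FPKM in mutant 3 and highest in mutant 2 (1391 FPKM). The Sertoli sum was lowest in mutant 2 (941 FPKM) and highest in mutant 1 (1281 FPKM). The part of cell composition or of the pancreatic and intestinal RNA in these values was not tested.

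**Figure D4:**
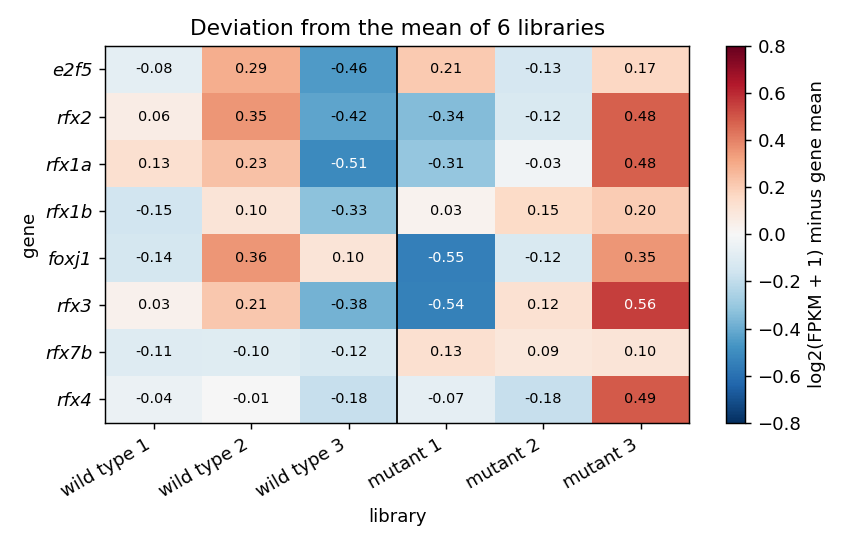
Deviation of each library from the gene's mean over the 6 libraries, as log2(FPKM + 1), for the 8 tested regulators; blue is below and red above the mean. Wild type 3 is low in all genes except foxj1, mutant 3 is high in all, and only rfx7b splits by genotype.

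Ratios within a library do not depend on how libraries are scaled. 7 ratios were formed, and for none was a difference between the genotypes detectable by the exact permutation test (2-sided p from 0.3 to 0.8, unadjusted; 0.1 is the smallest possible). e2f5 was 8.64 to 16.2 times the level of rfx2, highest in mutant 1 and lowest in mutant 3. rfx3 stood at 0.189 to 0.285 of rfx2, with both extremes again in the mutant.

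No tested relative or partner of these regulators passed the threshold. Of 8 rows for other FOXJ, FOXN4 and RFX genes and RFX cofactors, 6 were tested and 0 were called in limma or limma-voom, with 0 at an unadjusted p below 0.05 in either. Their median log2 difference was 0.17, with 5 of 6 positive. It was 0.13 without wild type 3 and 0.17 without mutant 3. With any 1 library left out, 4 or 5 of 6 were positive. Over all 15203 tested genes, 51.3% were positive. In limma 0.0592% were called and 7.13% had an unadjusted p below 0.05. limma-voom called 0 and had 1050 at an unadjusted p below 0.05. These are the values to set beside this and the lists below. With so few calls, a list without a called gene does not stand apart from all tested genes. rfx5, which with its cofactors controls MHC class II genes, was at 4.78 ± 0.974 and 6.17 ± 1.04 FPKM (SD, n = 3 each), a log2 difference of 0.32 (adjusted p = 0.810 in limma). Its cofactor rfxap had a log2 difference of 0.10. For its cofactor rfxank, named after its values were seen, it was -0.08. The copies of foxj3 differed by 0.24 (FOXJ3, ENSORLG00000026457) and 0.29 (ENSORLG00000004623).

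Of 10 rows for partners of the multiciliation branch and the centriole amplification machinery, 9 were tested and 0 were called in limma or limma-voom, with 0 at an unadjusted p below 0.05 in either. 7 of 9 were positive and the median log2 difference was 0.20, or 0.12 with 8 of 9 positive without wild type 3. Without mutant 3 the median was 0.17 with 9 of 9 positive. gmnn, encoding geminin, the replication inhibitor that gave the family its name, was at 197 ± 30.7 FPKM in wild type against 235 ± 30.4 FPKM in mutants (SD, n = 3 each; log2 difference 0.25, adjusted p = 0.814 in limma). Its level was far above that of gmnc. The centriole genes cep63, sass6 and cep152 had log2 differences of 0.43, 0.41 and 0.34. cep63 alone of the 9 had groups without overlap, while 14.0% of all tested genes had such groups. It was at 7.55 to 12.4 FPKM in wild type and 12.8 to 15.2 FPKM in the mutant (adjusted p = 0.761 in limma). e2f4, the E2F that shares the role of e2f5 and was named here after its values were seen, averaged 6.06 FPKM in wild type and 7.05 FPKM in mutants, far below e2f5.

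The lists of motile cilium genes and X-box cilium genes, chosen as kinds of gene that FOXJ1 and the RFX factors drive, likewise held no called gene. Whether these factors drive the listed genes in medaka testis was not tested. Of 26 rows of the motile cilium list, 21 were tested, 0 were called in limma or limma-voom, and 1 had an unadjusted p below 0.05 in each. 19 of 21 were positive with a median log2 difference of 0.16, against 51.3% positive over all tested genes. Without wild type 3, 9 of 21 were positive and the median was -0.02. Without mutant 3, 13 of 21 were positive and the median was 0.05. With any other library left out, 19 to 21 of 21 were positive. ropn1l, a radial spoke gene, was the 1 gene at an unadjusted p below 0.05 in limma, at 19.4 ± 0.255 and 24.4 ± 2.44 FPKM (SD, n = 3 each). Its log2 difference was 0.31 (adjusted p = 0.680 in limma). Its groups did not overlap, as for 14.0% of all tested genes. The dynein intermediate chain genes dnai2b and dnai2 had log2 differences of 0.50 and 0.30, and ccdc39, which sets the axonemal repeat, 0.24. rsph9 and cetn2, named after their values were seen, were listed at 0 in all libraries. spag16, named likewise, was listed at 0 in all wild-type libraries. Its mutant mean was 0.0896 FPKM, below the level set for testing.

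The X-box list was set by gene name, and the medaka promoters were not searched for the motif. Of its 21 rows, 20 were tested, 0 were called in limma or limma-voom, and 1 had an unadjusted p below 0.05 in each. 17 of 20 were positive with a median of 0.14, against 51.3% positive over all tested genes. Without wild type 3, 9 of 20 were positive with a median of -0.03, and without mutant 3, 11 of 20 with a median of 0.08. With any other library left out, 15 to 18 of 20 were positive. bbs9, a BBSome subunit, had groups without overlap, as did 14.0% of all tested genes. It was at 3.14 to 4.80 FPKM in wild type and 6.35 to 8.78 FPKM in the mutant (log2 difference 0.69, adjusted p = 0.442 in limma). The other BBSome subunits of the list, bbs1, bbs2, bbs4, bbs5, bbs7 and ttc8, had log2 differences from -0.14 (ttc8) to 0.12 (bbs2). dync2li1, wdr35 and ift88, genes of transport along the cilium, differed by 0.22, 0.29 and 0.30. b9d1, a transition zone gene named after its values were seen, was listed at 0 in all libraries.

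Other transcription factors of spermatocytes and spermatids gave 8 rows, of which 6 were tested, 0 were called in limma or limma-voom, and 1 had an unadjusted p below 0.05 in each. That gene in limma was the row that matches crem, the activator that mouse spermatids need. It was at 7.04, 5.04 and 5.39 FPKM in wild type 1, 2 and 3 and at 2.80, 3.28 and 3.36 FPKM in mutant 1, 2 and 3. All 3 mutant values lay below all 3 wild-type values, with a log2 difference of -0.71 (95% interval -1.10 to -0.32, adjusted p = 0.328 in limma). Of all tested genes 14.0% had groups without overlap. tcfl5 (0.41), tbpl1 (0.14) and MYBL1 (0.14) had positive log2 differences. The median of the list was 0.05, with 3 of 6 positive.

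**Figure D5:**
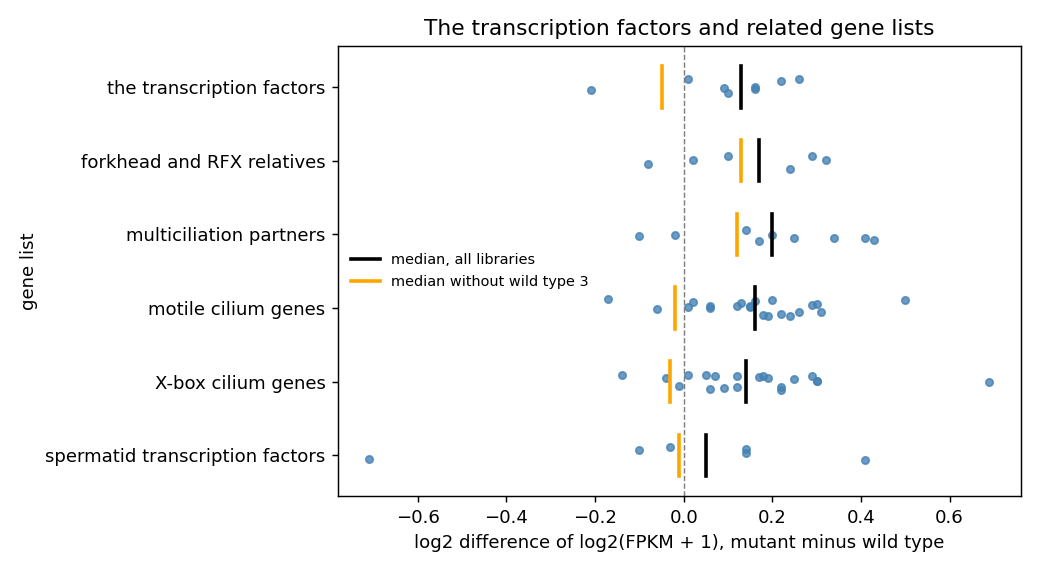
Log2 difference between genotypes, on the log2(FPKM + 1) scale, for each tested gene (points) of the 8 regulators and 5 related lists; black lines are medians with all libraries and orange lines medians without wild type 3. The medians of the regulators, the motile cilium genes and the X-box genes lie at 0.13, 0.16 and 0.14 with all libraries and at -0.05, -0.02 and -0.03 without wild type 3. Without mutant 3, which is not drawn, these medians are -0.09, 0.05 and 0.08. For the relatives, multiciliation partners and spermatid transcription factors the medians are 0.17, 0.20 and 0.05 with all libraries. Without wild type 3 those are 0.13, 0.12 and -0.01, and without mutant 3 they are 0.17, 0.17 and 0.01.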

How the data were processed

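RNA sequencing of medaka testis gave 1 deposited FPKM value per gene and library. The deposited FPKM divide fragments by gene length and by a library total that the authors scaled in a way not given in the sources used here. In wild type 3 this total was below the reads on genes. The submitters' processing notes list DESeq2 1.20.0, featureCounts 1.5.0-p3, HISAT2 2.0.5, fastp and CASAVA 1.8. The steps of each tool, the genome build and the strand setting are not given in the sources used here. The deposited gene length, in bases and of another kind than the FPKM values, is the divisor the authors used. Multiplied by it, 100% of values above 0 gave a whole number of reads, to within 0.01 read; these recovered reads gave the depths and the counting intervals.

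The genotypes were compared in R 4.3.3 with limma 3.58.1 on log2(FPKM + 1), with an intensity trend, robust moderation and no covariate. 15203 genes whose mean reached 1 FPKM in wild type or mutant were tested. Calls used a Benjamini-Hochberg adjusted p below 0.05 over all of them. Log2 differences on this scale understate the change of low genes. Single genes were also tested with scipy 1.17.1 by exact permutation.

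The regulators and lists were chosen with earlier results of these data known. List members were matched by name, or by a unique Swiss-Prot match; of each list, the 4 genes with the smallest p were named. Alternatives covered the pseudocount, filter, scaling, moderation, limma-voom, a replicate term and each library left out. A planned search for promoter motifs was not run, since no promoter sequence was used here.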

Additional observations from a re-analysis of the deposited data

How the results depend on the processing

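Over the 14 alternatives, 0 of the tested regulators were called in any (smallest adjusted p 0.623, limma), and 100 of 110 log2 differences kept their sign. Many of the 110 could not change: the filters, the moderation and the replicate term leave a log2 difference as it is. Apart from rfx2 with scaling by the upper quartile, every change of sign came with a library left out. With 1 library left out, the log2 differences ranged from -0.024 to 0.35 for e2f5, -0.23 to 0.19 for rfx2, -0.13 to 0.27 for rfx1a, -0.44 to 0.0071 for foxj1, -0.17 to 0.38 for rfx3, -0.05 to 0.29 for rfx4 and -0.03 to 0.28 for MYBL1. rfx2 was at -0.014 with scaling by the upper quartile. A mean of at least 5 FPKM left rfx7b and rfx4 untested. Over all genes, limma called 9, scaling by reads on genes called 14, limma-voom called 0 (1050 at an unadjusted p below 0.05), and leaving out 1 library called 2 (without mutant 2 or mutant 3) to 18 (without wild type 3), with 4 without wild type 1 and 3 without mutant 1. What caused these differences was not tested.

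With a replicate block, 6 genes were called and 0 of the regulators. Deviations of same-numbered libraries from their group means correlated at 0.31, -0.562 and -0.419. Wild type 1 and mutant 1 were each other's best match, as were wild type 2 and mutant 3, and wild type 3 and mutant 2. Deviations within so small a group depend on each other, so these values cannot decide whether the numbers pair the samples. Scaling by reads on genes moved the median of all genes by 0.049 and the upper quartile by -0.021 (log2).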
